A study of Mus musculus with 8 samples.

Results

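Growing axons find their targets by reading cues on other cells and in the surrounding matrix. The main families of cues are the ephrins, semaphorins, Slits and netrins, and their receptors are the Eph kinases, the plexins with neuropilins, the Robos, and DCC with the UNC5 proteins. In the developing forebrain and spinal cord they set where axons cross the midline, how maps between regions are ordered and, for several families, how neurons migrate and how progenitor zones keep their borders. The genes described here are the 71 of 36317 distinct symbols in the deposited table whose names belong to these families. The rule uses names only, and the genes fall into 37 ligands and 34 receptors.

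RNA was sequenced from dissected mouse embryonic tissue in 8 libraries, 2 for each of 4 groups. At embryonic day (E) 13.5 the groups were forebrain and spinal cord, both wt. At E15.5 both were forebrain, 1 from wt and 1 from EED-cKO embryos, whose knockout of Eed depends on Sox1-Cre. EED belongs to the core of PRC2, the Polycomb complex that methylates histone H3 at silenced genes. Sox1 is a gene of the early neural plate, so the Cre acts in neural cells and their descendants, and cells of other origin in the dissected tissue keep the gene. No further alleles of the wt embryos are named in the sources used here, nor whether a library came from 1 embryo or a pool, so the tests here rest on the spread between samples, which may be technical.

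Values are RPKM (reads per kilobase of transcript, scaled to mapped reads), rounded to 0.1 by the authors. The scale is per length, so levels of different genes are set side by side, but the gene lengths behind it are not given in the sources used here and the depth of each library is unknown. Library sums of RPKM were 378294 to 397320 at E13.5 and 761647 to 843296 at E15.5, so levels at the 2 ages are set side by side without a test. Changes are differences in log2(RPKM + 1) given with a standard error (SE). The added 1 makes the fold of low genes look smaller than it is. A gene is called at an adjusted p under 0.05 in limma over all 17022 tested genes. The E15.5 columns were read with the gene names in alphabetical order, and 20 of the 71 genes have another E15.5 row in that order than in the deposited one (Epha2 to Epha10, Nrp1 and Nrp2, all netrins and netrin-Gs, and Unc5a to Unc5d). Across those 20 genes, the wt forebrain of the 2 ages correlated with r = 0.872 in the order used and r = 0.068 in the deposited order, against r = 0.851 for the other 51. Eed was at 10 and 10.6 RPKM in EED-cKO forebrain and 25.8 and 27.9 in wt E15.5 forebrain. Between the wt E13.5 tissues Eed differed as well, at 19.1 and 17 RPKM in spinal cord against 31.2 and 34 in forebrain (log2 −0.82 ± 0.085 SE). Hoxb8, a trunk gene, was at 367.3 and 408.4 RPKM in spinal cord, at most 0.1 in the wt forebrain libraries, and at 7.1 and 5.9 in EED-cKO forebrain.

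The promoters of 4 of these genes are shown because they carry the main patterns described below: Slit2, which was higher in both comparisons, Efnb2 and Epha3, which were lower in both, and Robo3, which differed between the E13.5 tissues and was not called in EED-cKO forebrain. Each runs 5′ to 3′ on the strand of the gene, from 250 bases before to 50 after the first listed start in RefSeq (GRCm38.p6), with every CG dinucleotide in capitals. CG-rich promoters are the kind on which PRC2 is known to act in mammals. Such a count is a description of the letters, and binding was not measured.
Slit2, chr5:47982905-47983204, + strand: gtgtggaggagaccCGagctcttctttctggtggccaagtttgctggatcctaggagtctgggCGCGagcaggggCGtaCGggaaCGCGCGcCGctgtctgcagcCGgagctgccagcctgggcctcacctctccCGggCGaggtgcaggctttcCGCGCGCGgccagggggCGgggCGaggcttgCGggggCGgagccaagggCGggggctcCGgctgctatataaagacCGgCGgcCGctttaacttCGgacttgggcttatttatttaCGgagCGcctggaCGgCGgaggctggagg
Efnb2, chr8:8661193-8661492, − strand: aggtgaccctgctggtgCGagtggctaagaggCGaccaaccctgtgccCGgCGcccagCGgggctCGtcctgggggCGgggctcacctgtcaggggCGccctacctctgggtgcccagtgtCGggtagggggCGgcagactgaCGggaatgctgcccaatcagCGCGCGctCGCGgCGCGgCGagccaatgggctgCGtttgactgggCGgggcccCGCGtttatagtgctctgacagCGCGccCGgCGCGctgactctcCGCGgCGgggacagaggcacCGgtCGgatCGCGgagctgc
Epha3, chr16:63864126-63864425, − strand: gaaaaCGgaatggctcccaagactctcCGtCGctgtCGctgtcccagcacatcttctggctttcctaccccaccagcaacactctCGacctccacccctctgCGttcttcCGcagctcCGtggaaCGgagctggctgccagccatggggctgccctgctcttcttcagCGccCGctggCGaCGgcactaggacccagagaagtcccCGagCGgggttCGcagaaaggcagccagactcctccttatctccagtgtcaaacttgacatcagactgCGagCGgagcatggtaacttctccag
Robo3, chr9:37433126-37433425, − strand: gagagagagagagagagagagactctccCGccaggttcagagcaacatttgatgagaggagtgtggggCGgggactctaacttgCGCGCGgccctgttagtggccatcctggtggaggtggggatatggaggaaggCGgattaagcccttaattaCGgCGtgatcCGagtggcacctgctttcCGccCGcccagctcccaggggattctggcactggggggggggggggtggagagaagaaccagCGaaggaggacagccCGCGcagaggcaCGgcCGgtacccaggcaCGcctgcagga
The Slit2 window holds 30 CG dinucleotides and that of Efnb2 35, numbers that 11.5% and 6.73% of the 27025 promoters of the table reach. Epha3 has 18 and Robo3 17, reached by 30.1% and 31.9%. A promoter was matched for 61 of the 71 genes. Their median was 22 CG dinucleotides in 300 bases, close to the median of 20 for the 12228 tested genes with a promoter and above the 7 of all promoters. The median was 21 in the matched genes that were higher in EED-cKO (n = 21), 23 in those that were lower (n = 14) and 22.5 in those without a call (n = 24). At least 15 were present in 57.1%, 78.6% and 75.0% of these, against 65.8% of the tested genes with a promoter.

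Most of these genes were expressed in every group. At least 10 RPKM in both libraries was reached by 40 of the 71 genes in E13.5 forebrain, 44 in spinal cord, 44 in wt E15.5 forebrain and 47 in EED-cKO forebrain. B ephrins had the highest levels in wt forebrain, Efnb1 at E13.5 (87.3 and 86.9 RPKM) and Efnb3 at E15.5 (134.7 and 121.7 RPKM), there followed by Efnb2 (87.7 and 78.8). In EED-cKO forebrain Efnb3 was again the highest, followed by the plexin gene Plxnb2 (76.8 and 81.8 RPKM). The spinal cord had another order, led by Robo3 (78.7 and 78.9 RPKM) and the transmembrane semaphorin gene Sema6c (69 and 72.3), while Sema4g, Plxna3, Ntn1 and Efnb3 followed between 51.1 and 55.2 RPKM and overlapped in part. Epha1 (at most 0.9 RPKM) and Plxnb3 (at most 0.6 RPKM) did not pass the filter of 1 RPKM in 2 libraries, which left 69 genes for the tests. Ntn5 passed through the EED-cKO libraries alone.

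**Figure D1:**
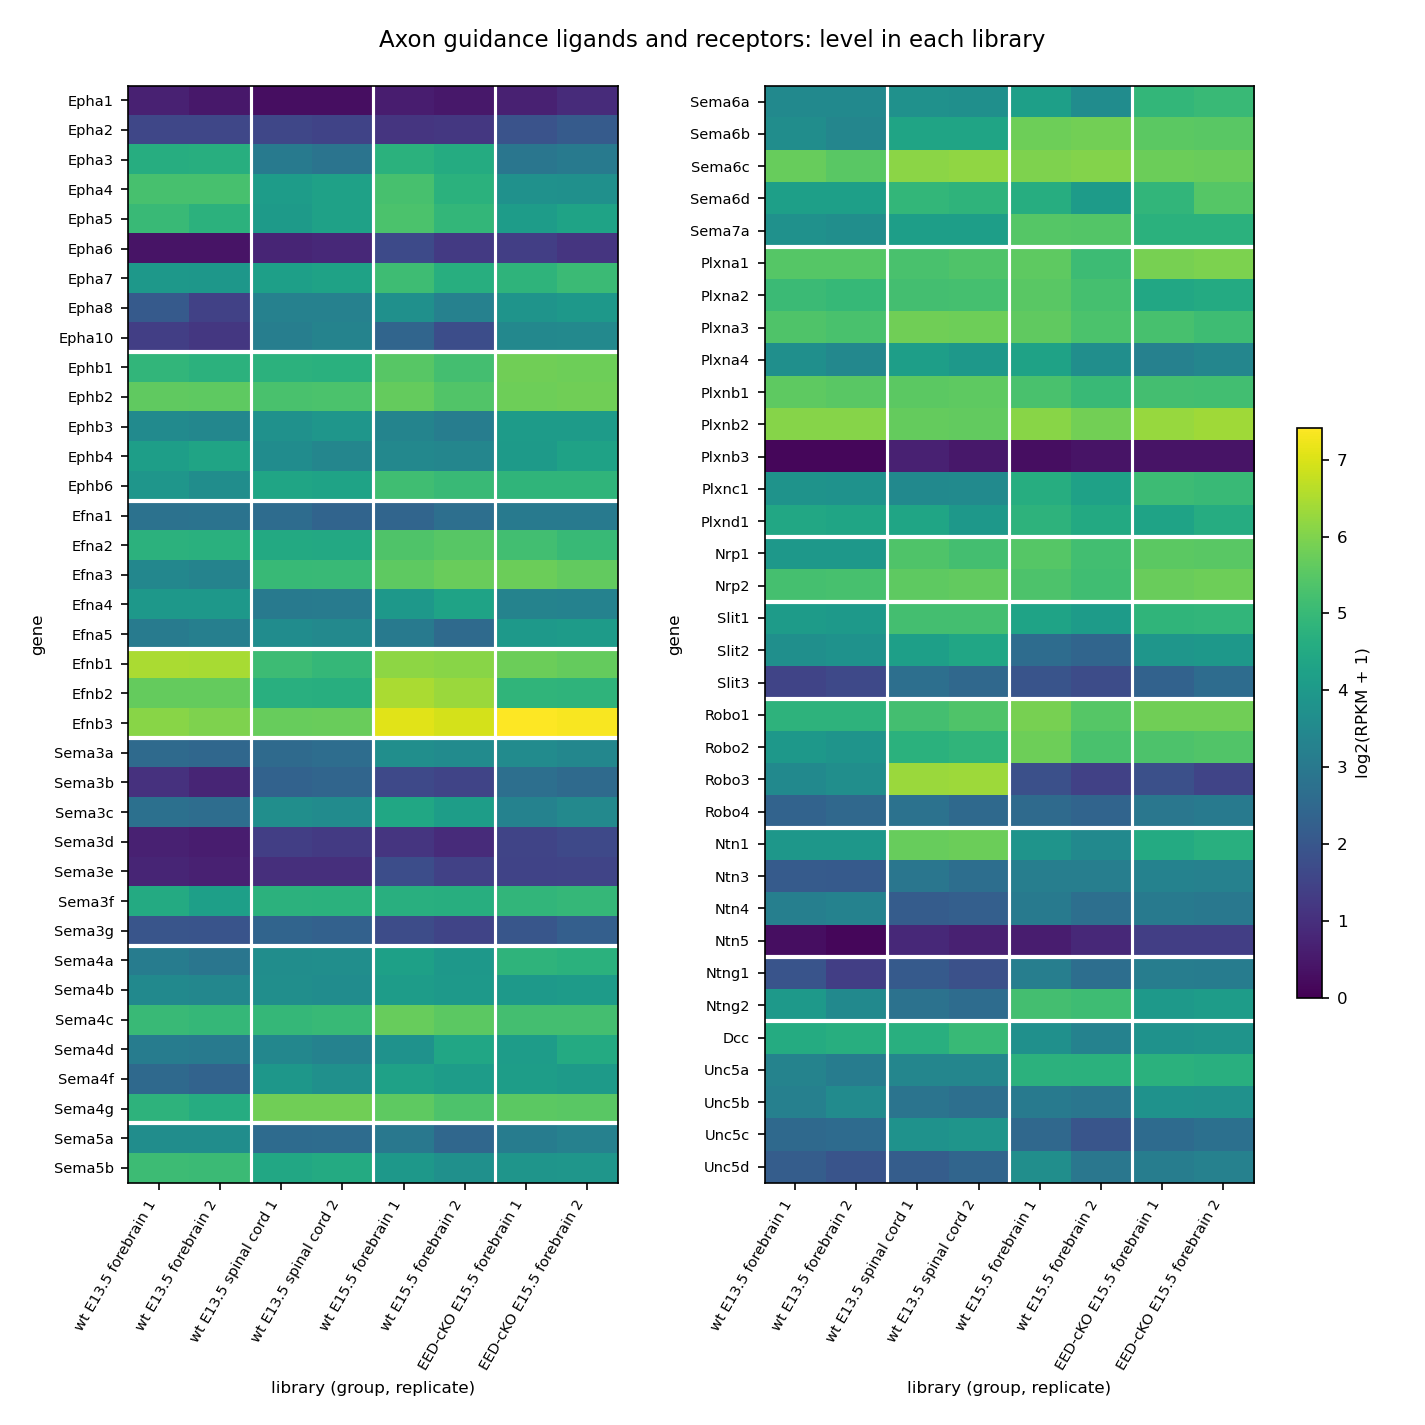
Level of each of the 71 genes (rows, grouped by family) in each of the 8 libraries (columns), as log2(RPKM + 1) on the colour scale. Efnb3 is the brightest row at E15.5, Robo3 is brightest in the 2 spinal cord libraries (78.7 and 78.9 RPKM), and Epha1 and Plxnb3 are dark throughout.

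Guidance genes moved in both directions in EED-cKO forebrain. Of the 69 tested, 27 rose and 15 fell, or 39.1% and 21.7%, while 30.2% and 16.7% of all tested genes were called higher and lower. Between the wt tissues, 30 were higher and 16 lower in spinal cord than in forebrain, against 21.8% and 23.9% of all tested genes. The groups did not overlap for 33 genes with the higher and 18 with the lower values in EED-cKO (together 70.3% of all tested genes did not), and for 42 and 21 in spinal cord (76.3% of all tested genes). The median change of the 69 was 0.14 in EED-cKO (0.08 over all genes) and 0.29 in spinal cord (0.00 over all genes). Quantile normalization moved the median change of all genes in EED-cKO to −0.05, and that of the guidance genes to 0.08. It gave 21 guidance genes higher and 18 lower, against 3540 and 4314 of all 17022 tested genes. Median-ratio scaling gave 25 higher and 17 lower, against 4043 and 4240 of all tested genes. All 42 genes called in EED-cKO kept their direction under both.

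The wt E15.5 libraries differed more for these genes than other pairs did. Replicate 1 was higher than replicate 2 for 59 of the 69 genes (52.5% of all tested genes), with a median difference of 0.23 on the log2 scale, against at most 0.055 in size in the other groups. Among the E15.5 libraries, leaving out wt replicate 1 gave the most guidance gene calls in EED-cKO, and leaving out EED-cKO replicate 2 the fewest. The calls over all tested genes followed the same order. Of the 42 calls, 13 were lost with at least 1 of the 8 libraries left out, as were 11 of the 46 in spinal cord. They are named below. Calls over all tested genes moved with the library left out as well. With the 4 E15.5 libraries fitted alone, 16 guidance genes were called higher and 13 lower in EED-cKO, while the calls over all tested genes went from 7987 to 4777. The 13 calls lost in that fit were those of Efna1, Efna2, Ephb1, Ephb2, Plxna1, Plxna4, Plxnb2, Plxnc1, Robo4, Sema3g, Sema5a, Sema6d and Slit3. With the 4 E13.5 libraries alone, Ephb3, Sema3f and Unc5b lost their spinal cord calls.

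Markers of other cells moved as well, and in bulk tissue fewer cells of a type and less RNA per cell cannot be told apart. In EED-cKO forebrain, all 12 endothelial markers rose (10 after quantile normalization and 9 after median-ratio scaling), with sums of 326.8 to 342.6 RPKM against 220.2 to 233.7 in wt, and 11 of 12 meningeal and mesenchymal markers rose, with sums of 804.9 to 987.3 against 230 to 289.6 RPKM. So did 6 of 7 pericyte, 8 of 9 microglial and all 8 choroid plexus markers. Of 8 markers of cortical glutamatergic neurons, 7 fell, from sums of 843.7 to 870.3 to sums of 158.3 to 160.6 RPKM. Of 8 genes of neurons of any type, 2 rose and 2 fell, as did 4 and 2 of 8 progenitor genes and 2 and 5 of 8 forebrain GABAergic markers. EED-cKO replicate 2 stood apart in muscle markers, which summed to 101.0 RPKM there, 8.4 in EED-cKO replicate 1 and 5.5 to 7.8 in wt, with Acta1, the actin of skeletal muscle, at 49.4 against 3.9 RPKM in replicate 1. Of the 3 of them that were tested, 1 was called higher. Spinal cord had higher levels of all 8 markers of peripheral ganglia and glia (385.5 to 522.1 against 63.9 to 67.6 RPKM summed) and of all 8 genes of neurons of any type (2613 to 2714 against 1592 to 1782), and lower levels of 7 of 8 glutamatergic and 6 of 8 forebrain GABAergic markers. Choroid plexus markers were lower there in 6 of 8 cases (sums of 5.3 to 6.6 against 237.9 to 243.7 RPKM), and progenitor genes in 5 of 8, with 2 higher. Microglial markers were higher in 7 of 9 cases, and of 12 meningeal and mesenchymal markers 5 were higher and 2 lower. No marker of the endothelial, mesenchymal, pericyte or microglial lists was at 0. The part of these cells in the results below was not tested.

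**Figure D2:**
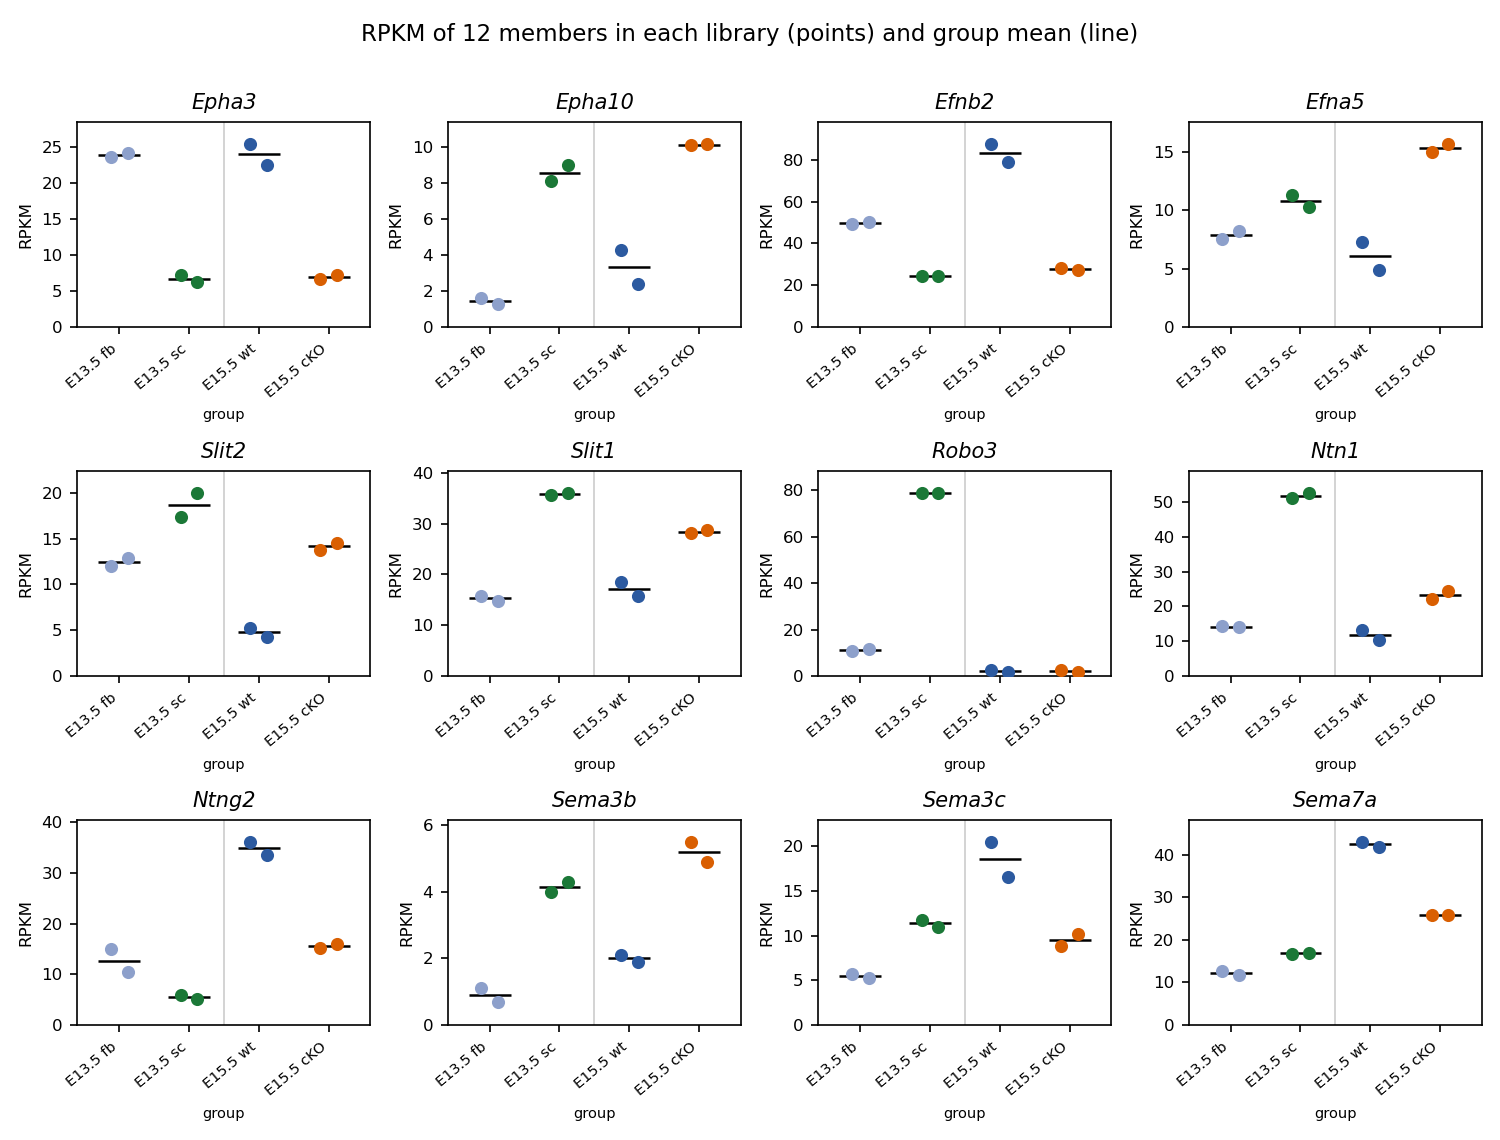
RPKM of 12 guidance genes in each library (points, 2 per group) with the group mean (line), in E13.5 forebrain (fb), E13.5 spinal cord (sc), and wt and EED-cKO E15.5 forebrain; each vertical axis starts at 0. Set against wt forebrain of the same age, Epha3, Efnb2 and Ntng2 are lower in both spinal cord and EED-cKO forebrain. Slit2, Slit1, Ntn1, Sema3b and Epha10 are higher in both, and Robo3 is higher in spinal cord alone.

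EphA kinases are receptors that sort axons along gradients of A ephrins. Epha3, Epha4 and Epha5 fell in EED-cKO forebrain and were lower in spinal cord, while Epha10 went the other way in both. Epha3 (chromosome 16, 63543534 to 63864175, GRCm38) had 25.5 and 22.6 RPKM in wt E15.5 forebrain and 6.6 and 7.2 in EED-cKO. At E13.5 it was at 23.7 and 24.2 RPKM in forebrain and 7.2 and 6.2 in spinal cord. The groups did not overlap in either comparison, and the changes were close in size (log2 −1.66 ± 0.096 SE, limma adjusted p = 6.2e-05, and −1.70 ± 0.096, adjusted p = 2.1e-05). The difference between the 2 changes was 0.04 (adjusted p = 0.86). In the deposited row order, the E15.5 row under the name Epha3 changed by 0.84 instead. Epha4, a receptor of both ephrin classes, fell from 37 and 25.9 to 12.4 and 12.1 RPKM (log2 −1.27 ± 0.15), and Epha5 from 39.1 and 29 to 16.2 and 18.6 RPKM (−0.92 ± 0.16). In spinal cord they were at 16.2 and 18.1, and 15.4 and 18 RPKM, against 37.7 and 37.3, and 31.8 and 26.4 in forebrain. Epha10, which lacks an active kinase, rose from 4.3 and 2.4 to 10.1 and 10.2 RPKM in EED-cKO (log2 1.39 ± 0.20) and was at 8.1 and 9 in spinal cord against 1.6 and 1.3 in forebrain (1.96 ± 0.20), and had no EED-cKO call in the deposited order. Epha2 rose in EED-cKO, from 1.2 and 1.3 to 2.7 and 3.4 RPKM, and Epha8 was higher in spinal cord (8.6 and 8.5 against 3.3 and 1.7 RPKM). Epha7 was abundant and was called in neither comparison (log2 0.07 and 0.29). Of the 8 tested EphA genes, 2 rose and 3 fell in EED-cKO (2 and 4 after quantile normalization), and 2 were higher and 3 lower in spinal cord. Over all tested genes 30.2% were called higher and 16.7% lower in EED-cKO, and 21.8% and 23.9% in spinal cord. The spinal cord call of Epha5 was lost without forebrain replicate 1 (adjusted p = 0.0554) or spinal cord replicate 1 (adjusted p = 0.0622).

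EphB receptors bind the transmembrane B ephrins. In EED-cKO forebrain 4 of 5 were called higher and none lower, against 30.2% and 16.7% of all tested genes. After quantile normalization 4 were higher and 1 lower, and after median-ratio scaling 3 and 1. Ephb3 rose from 9.2 and 7.8 to 15.8 RPKM in both EED-cKO libraries (log2 0.83 ± 0.098), and Ephb4, a receptor also known from veins, from 10 and 9.6 to 15.5 and 18.2 RPKM (0.72 ± 0.11). Ephb4 was lower in spinal cord, at 11.3 and 9.6 against 16.8 and 19 RPKM in forebrain (log2 −0.72 ± 0.11). Its 2 changes differed by 1.45 (adjusted p = 0.00071). Ephb1 rose as well (log2 0.45), which was not called once EED-cKO replicate 1 (adjusted p = 0.0572) or replicate 2 (0.0532) was left out. The rise of Ephb2 (log2 0.27) was lost with every library but wt E15.5 replicate 1 left out, at adjusted p = 0.0539 to 0.168. In spinal cord the calls of Ephb2 (log2 −0.29) and Ephb3 (0.33) were each lost with 6 of the 8 libraries left out, the 2 wt E15.5 libraries being the exceptions, at adjusted p = 0.0565 to 0.162. Ephb6, which has no kinase activity, was higher there, at 19.5 and 18.8 against 13.8 and 11.5 RPKM (log2 0.57 ± 0.091). In EED-cKO it was at 27.9 and 28.1 RPKM against 34.6 and 31.9 in wt, without a call (log2 −0.24, adjusted p = 0.068).

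Among the A ephrins, which are held to the membrane by a lipid anchor, Efna5 rose and Efna4 fell. Efna5, a repellent cue of topographic maps, was at 7.3 and 4.9 RPKM in wt E15.5 forebrain and at 15 and 15.7 in EED-cKO (log2 1.22 ± 0.15, adjusted p = 0.00095). It was not called between the E13.5 tissues (log2 0.41, adjusted p = 0.065). Efna4 was lower in both comparisons, with 9 and 8.7 RPKM in EED-cKO against 14.5 and 18.8 in wt, and 7.4 and 7.5 in spinal cord against 14.6 and 14.5 in forebrain (log2 −0.83 ± 0.11 and −0.88 ± 0.11). Efna3 separated the 2 comparisons. It was at 31 and 31.7 RPKM in spinal cord and 9.9 and 9 in E13.5 forebrain (log2 1.63 ± 0.081), and at 52.6 and 48.3 in EED-cKO against 46.5 and 51.6 in wt, where the groups overlapped (0.04 ± 0.081). The difference between the 2 changes was −1.59 (adjusted p = 0.00015). Efna2 fell slightly in EED-cKO (log2 −0.35) and was lower in spinal cord (−0.24), the second call being lost without any of the 4 E13.5 libraries (adjusted p = 0.0895 to 0.145). The rise of Efna1 in EED-cKO (log2 0.47) was lost without EED-cKO replicate 1 (0.0811) or replicate 2 (0.0874), or wt E15.5 replicate 1 (0.0523).

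The B ephrins, the 3 most abundant ligands in wt E15.5 forebrain, included the largest fall among the ligands in EED-cKO. Efnb2 (chromosome 8, 8617434 to 8661242), a ligand in axon pathfinding and in arteries, was at 87.7 and 78.8 RPKM in wt and 28 and 27.4 in EED-cKO forebrain (log2 −1.55 ± 0.066, adjusted p = 1.8e-05). In spinal cord it was at 24.6 and 24.3 RPKM against 49.4 and 50.2 in forebrain (−1.0 ± 0.066). Efnb1 was at 33.1 and 29.7 RPKM in spinal cord against 87.3 and 86.9 in forebrain (log2 −1.45 ± 0.070), and fell less in EED-cKO, from 70.7 and 67.1 to 52.9 and 49.9 RPKM (−0.42 ± 0.070). Both genes were lower in both comparisons, by amounts that differed (adjusted p = 0.0039 for Efnb2 and 0.00045 for Efnb1). Efnb3, the midline ephrin of the corticospinal tract, rose from 134.7 and 121.7 to 170.3 and 162.8 RPKM in EED-cKO (log2 0.38 ± 0.071). Its spinal cord value was lower than that of forebrain (log2 −0.33 ± 0.071), a call lost without forebrain replicate 1 (adjusted p = 0.052) or spinal cord replicate 1 (0.0535).

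Slits are secreted repellents of the midline, and Robos are their receptors. All 3 Slit genes rose in EED-cKO forebrain, where 30.2% of all tested genes were called higher. All 3 were also higher in spinal cord than in forebrain at E13.5, against 21.8% of all tested genes. Slit2 (chromosome 5, 47983138 to 48307733) was at 5.2 and 4.3 RPKM in wt and 13.8 and 14.5 in EED-cKO, which is 2.98 times the mean of wt (log2 1.40 ± 0.11, adjusted p = 0.00014). In spinal cord it was at 17.4 and 20 RPKM against 12 and 12.9 (0.55 ± 0.11). Slit1 rose from 18.6 and 15.8 to 28.1 and 28.8 RPKM in EED-cKO (log2 0.70 ± 0.085) and was at 35.6 and 36.1 in spinal cord against 15.8 and 14.8 (1.18 ± 0.085). Slit3 was low, at 4 and 5.1 RPKM in EED-cKO against 2.8 and 2.3 in wt (log2 0.64 ± 0.13). That call was lost without EED-cKO replicate 2 (adjusted p = 0.0558) and after quantile normalization.

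The Robo genes did not follow the Slits in EED-cKO forebrain. Robo3, which lets commissural axons approach and cross the midline, was the guidance gene with the largest difference between the tissues, at 78.7 and 78.9 RPKM in spinal cord and 10.6 and 11.7 in E13.5 forebrain, or 7.07 times the forebrain mean (log2 2.72 ± 0.15, adjusted p = 1.7e-05). In E15.5 forebrain it was at 2.5 and 1.7 RPKM in wt and 2.5 and 1.9 in EED-cKO (log2 0.05 ± 0.15). The difference between the 2 changes was −2.67 (adjusted p = 0.0002). Robo2 was also higher in spinal cord, at 25.8 and 27.8 against 14.4 and 13.2 RPKM (log2 0.91 ± 0.15), and overlapped between EED-cKO (39.5 and 41.7 RPKM) and wt (54.3 and 38.1). Its changes differed by −1.07 (adjusted p = 0.0079). Robo1 was at 54.8 and 55.1 RPKM in EED-cKO and 59.1 and 43.4 in wt. It was higher in spinal cord (log2 0.49), a call lost with 6 of the 8 libraries left out, all but those of wt E15.5 (adjusted p = 0.052 to 0.139). Robo4, a Robo of endothelial cells, was the member called in EED-cKO (6.7 and 7.3 against 4.9 and 4.2 RPKM, log2 0.53 ± 0.12). Leaving out replicate 2 of EED-cKO or of wt E15.5 ended that call, as did quantile normalization. All 12 endothelial markers were called higher in EED-cKO, 10 after quantile normalization and 9 after median-ratio scaling. Their part in the change of Robo4 was not tested.

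Netrin 1 attracts axons that carry DCC and repels those that carry UNC5 receptors. Ntn1 (chromosome 11, 68209364 to 68400823) rose from 13.2 and 10.5 to 22.2 and 24.4 RPKM in EED-cKO (log2 0.93 ± 0.11, adjusted p = 0.00061). In spinal cord, where the floor plate is a known source, it was at 51.1 and 52.7 RPKM against 14.3 and 14.1 in forebrain (1.80 ± 0.11, adjusted p = 2.4e-05). The deposited row order gave a log2 change of 0.00 in EED-cKO under the names Ntn1 and Ntng2. The change in spinal cord was larger than that in EED-cKO by 0.87 on the log2 scale (difference −0.87, adjusted p = 0.0041). Ntn4, a netrin of basement membranes, was lower in spinal cord (3.5 and 3.7 against 8.3 and 8.7 RPKM, log2 −1.05 ± 0.12) and was not called in EED-cKO (0.14). Ntn3 was higher in spinal cord (log2 0.68 ± 0.099). Ntn5 reached 1.6 RPKM in each EED-cKO library, with 0.5 and 0.8 in wt, a rise that the filter favours because the gene was tested through those libraries. Netrin-G ligands are membrane-anchored relatives that act at synapses. Ntng2 fell from 36.1 and 33.6 to 15.2 and 16 RPKM in EED-cKO (log2 −1.11 ± 0.15) and was lower in spinal cord (5.9 and 5.2 against 14.9 and 10.4 RPKM, −1.04 ± 0.15), while Ntng1 was called in neither.

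Among the netrin receptors, Dcc was at 12.9 and 13.3 RPKM in EED-cKO and 12.3 and 8.8 in wt, and at 24.8 and 30.9 in spinal cord against 22.8 and 23.9, without a call in either comparison (log2 0.30 and 0.24, adjusted p = 0.15 and 0.26). Unc5b, which also acts in vessels, rose from 7.1 and 6.5 to 12.7 and 12.4 RPKM in EED-cKO (log2 0.80 ± 0.12) and was lower in spinal cord (6.2 and 5.6 against 8.4 and 10.9 RPKM, −0.62 ± 0.12). The difference between these changes was 1.42 (adjusted p = 0.0011). The deposited order gave −0.05 for Unc5b in EED-cKO. Unc5c was higher in spinal cord, at 12.8 and 13.7 against 4.8 and 5 RPKM (log2 1.27 ± 0.17), and was at 5 and 5.7 in EED-cKO against 4.7 and 2.9 in wt (0.43, adjusted p = 0.078). Unc5a and Unc5d were not called in either comparison.

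Class 3 semaphorins are secreted and signal through neuropilins and A plexins. Sema3b rose in EED-cKO from 2.1 and 1.9 to 5.5 and 4.9 RPKM (log2 1.05 ± 0.12) and was at 4 and 4.3 in spinal cord against 1.1 and 0.7 (1.45 ± 0.12). Sema3c went opposite ways in the 2 comparisons. It fell from 20.5 and 16.6 to 8.8 and 10.2 RPKM in EED-cKO (log2 −0.89 ± 0.12) and was higher in spinal cord, at 11.8 and 11 against 5.7 and 5.3 RPKM (0.93 ± 0.12), with a difference of −1.82 (adjusted p = 0.00036). Sema3d was low and higher in both comparisons (log2 0.55 and 0.69), although not after quantile normalization in EED-cKO. Sema3a, the best known repellent of the class, was at 10.9 and 9.8 RPKM in EED-cKO and 11.8 and 11 in wt, without a call (log2 −0.13), and was likewise not called in spinal cord (0.09). Of the 7 genes of the class, 3 rose and 1 fell in EED-cKO, against 30.2% and 16.7% of all tested genes. In spinal cord 5 were higher and none lower, against 21.8% and 23.9% of all tested genes. After quantile normalization 1 rose and 3 fell in EED-cKO, and over all tested genes 3540 rose and 4314 fell. Sema3g lost its EED-cKO call without replicate 2 of EED-cKO (adjusted p = 0.0727) or of wt (0.052) and its spinal cord call without any E13.5 library (0.0739 to 0.132), and Sema3f lost its spinal cord call with 5 libraries left out (0.0641 to 0.134), forebrain replicate 1 and the 2 wt E15.5 libraries being the exceptions.

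Classes 4 to 7 are bound to the membrane. In class 4, Sema4a rose from 17.6 and 14.6 to 27.5 and 25.6 RPKM in EED-cKO (log2 0.69 ± 0.11) and Sema4c, a ligand of plexin B2, fell from 50.5 and 45.9 to 36.2 and 35.6 RPKM (−0.41 ± 0.068). Spinal cord had more Sema4f (14.3 and 12.2 against 4.8 and 4.1 RPKM, log2 1.39 ± 0.11) and Sema4g (54.8 and 55.2 against 26.9 and 23.1 RPKM, 1.11 ± 0.10), and neither was called in EED-cKO (−0.09 and 0.07). Sema6a rose from 17.3 and 11.2 to 29.4 and 31.8 RPKM in EED-cKO (log2 1.08 ± 0.17). Sema7a, the lipid-anchored semaphorin that promotes axon growth, fell from 43 and 41.9 to 25.8 RPKM in both EED-cKO libraries (log2 −0.70 ± 0.062, adjusted p = 0.00025) while it was higher in spinal cord than in forebrain (16.8 and 16.9 against 12.6 and 11.7 RPKM, 0.44 ± 0.062). Sema5a (5 and 5.2 against 11.4 and 11.5 RPKM, log2 −1.03 ± 0.15) and Sema5b (20.8 and 22 against 32.7 and 32.6 RPKM, −0.59 ± 0.083) were lower in spinal cord. Sema6b was higher there (log2 0.80 ± 0.082), as was Sema6c (0.55 ± 0.071).

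Several calls in classes 5 to 7 were lost when single libraries were left out. Sema6d was at 28.7 and 42.9 RPKM in EED-cKO and 23.5 and 15.9 in wt (log2 0.83), and lost its call without replicate 2 of EED-cKO (adjusted p = 0.121) or of wt (0.108). It also lost the spinal cord call (log2 0.67) without any E13.5 library (0.123 to 0.166). Sema6b (log2 −0.28) and Sema6c (−0.28) lost their calls in EED-cKO without either EED-cKO library (adjusted p = 0.107 and 0.129 for Sema6b, 0.0658 and 0.0919 for Sema6c) and without wt E15.5 replicate 2 (0.105 and 0.0571), and Sema6b also without either spinal cord library (0.0582). Sema5a (log2 0.46 in EED-cKO) lost its call with every library but wt E15.5 replicate 1 left out (0.0769 to 0.215).

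Plexins carry the semaphorin signal across the membrane. Of the A plexins in EED-cKO forebrain, Plxna2 and Plxna4 were called lower and Plxna1 higher. With the 4 E15.5 libraries fitted alone, Plxna2 kept its call and Plxna1 and Plxna4 did not. Plxna2 fell from 45.4 and 36.8 to 20.8 and 22 RPKM (log2 −0.90 ± 0.099, adjusted p = 0.00055). In spinal cord it was at 35.8 and 36.9 RPKM against 32.2 and 30.6, without a call. Plxna1 was at 58.6 and 61.2 RPKM in EED-cKO against 47.1 and 32.9 in wt (log2 0.59), but was not called when EED-cKO replicate 1 (adjusted p = 0.0726) or replicate 2 (0.0998) was left out. Plxna4 was at 8.5 and 9.5 RPKM against 18.2 and 11.6 (log2 −0.64), a call lost with every library but wt E15.5 replicate 2 left out (0.0544 to 0.166). Plxnc1, the receptor of semaphorin 7A, rose from 23.4 and 17.9 to 32.9 and 31.7 RPKM (log2 0.63 ± 0.12), while the gene of its ligand fell. Plxnb2 was the most abundant plexin in forebrain, at 76.8 and 81.8 RPKM in EED-cKO against 67.1 and 56.4 in wt (log2 0.36), a call lost without EED-cKO replicate 2. It was lower in spinal cord, at 49.5 and 49 against 65.9 and 66.8 RPKM (−0.42 ± 0.086). Plxnd1, a plexin of vessels, was not called in EED-cKO (18.7 and 23 against 26.7 and 21.9 RPKM). Neither was Plxna3 (37.2 and 33.6 against 47.7 and 39.3 RPKM, log2 −0.29, adjusted p = 0.051). Plxna3 was higher in spinal cord (log2 0.47), a call lost without forebrain replicate 2 (0.0585) or spinal cord replicate 1 (0.0537).

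The neuropilins, which bind class 3 semaphorins for the A plexins, were both higher in spinal cord, as were 21.8% of all tested genes. Nrp1 was at 40.3 and 35.9 RPKM there and 14.5 in both E13.5 forebrain libraries (log2 1.33 ± 0.10, adjusted p = 7.1e-05). In EED-cKO it was at 45.9 and 44.8 RPKM against 43.1 and 35.3 in wt (0.21, adjusted p = 0.13), and its changes differed by −1.12 (adjusted p = 0.0013). Nrp2 rose in EED-cKO from 39.9 and 34.2 to 52.2 and 54.6 RPKM (log2 0.52 ± 0.080), against −1.16 in the deposited row order. It was higher in spinal cord by 0.35, a call lost without forebrain replicate 1 (adjusted p = 0.0513) or replicate 2 (0.0538), or spinal cord replicate 2 (0.0661).

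**Figure D3:**
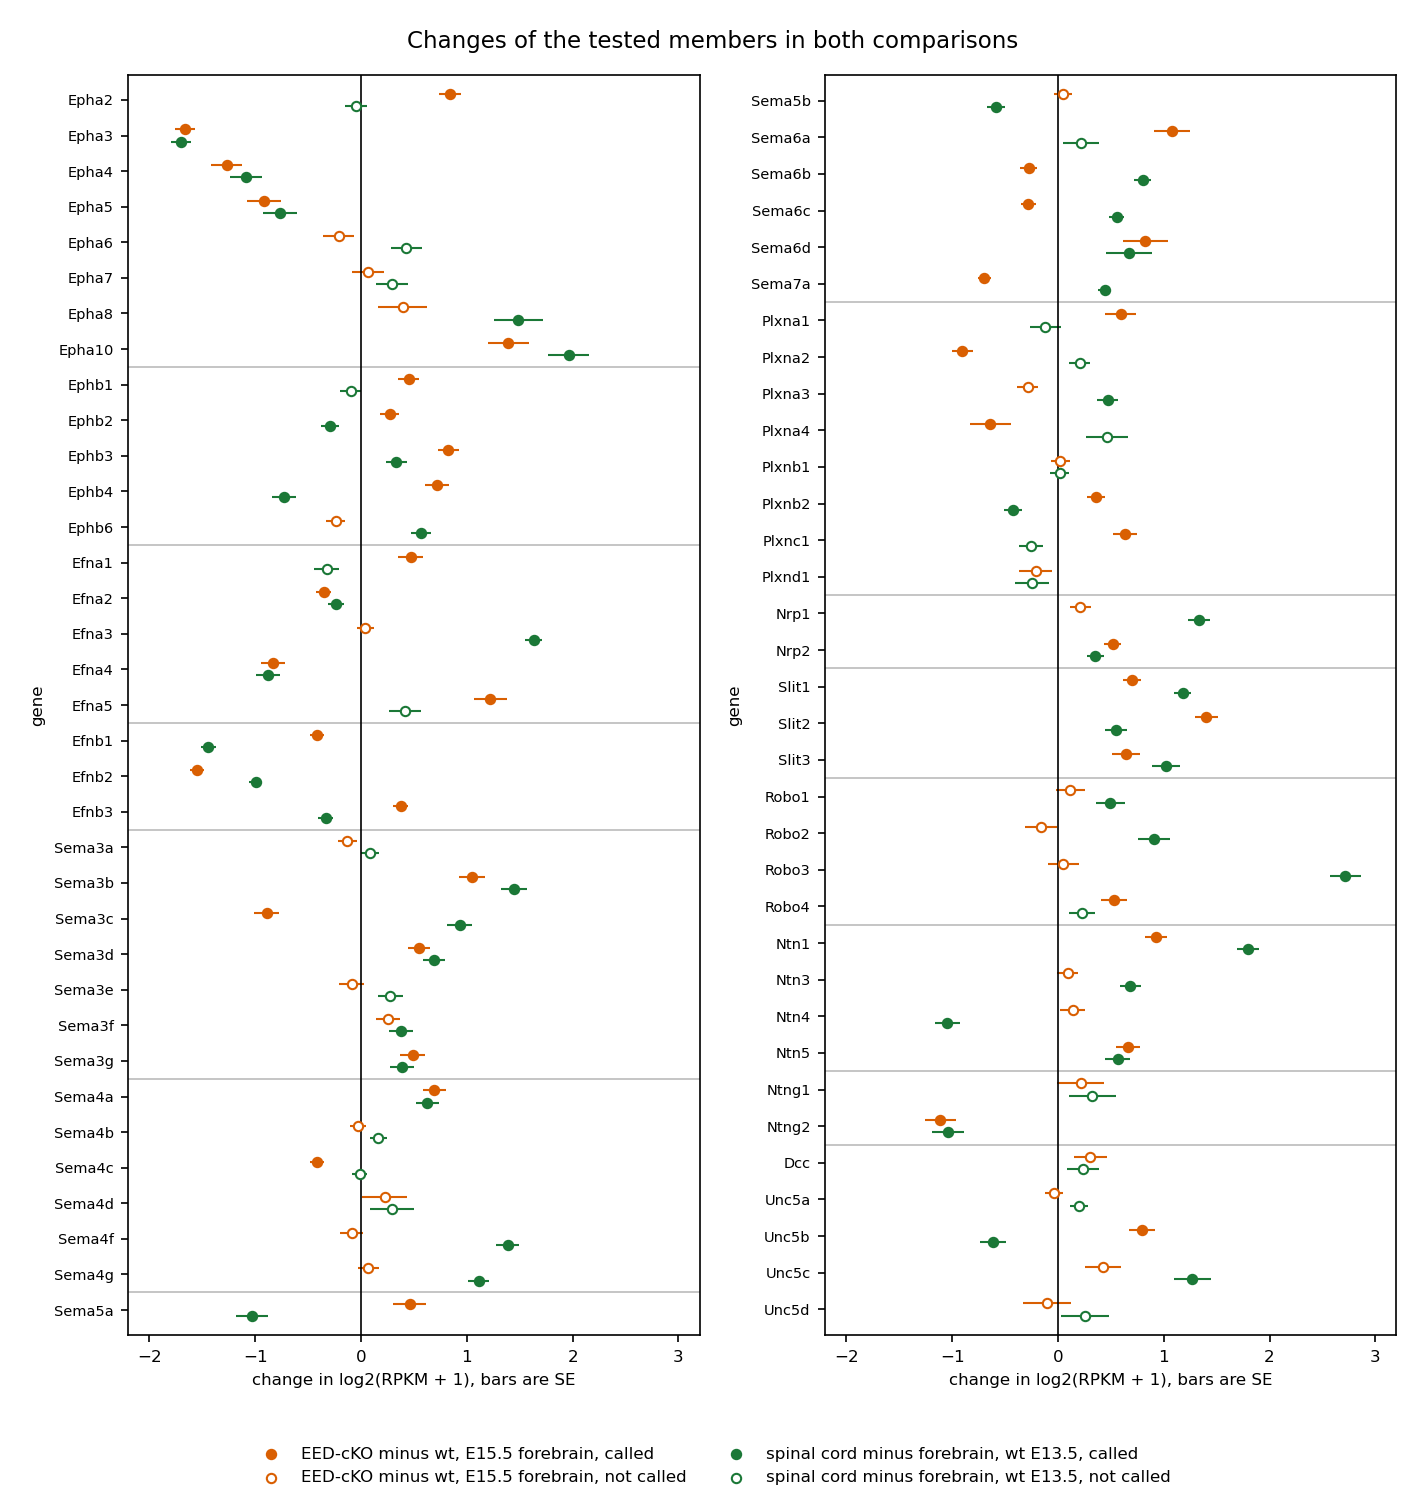
Change in log2(RPKM + 1) of each tested gene with its SE, in EED-cKO against wt E15.5 forebrain (orange) and in spinal cord against forebrain at E13.5 (green), grouped by family; filled points were called. The 3 Slit genes lie right of 0 in both colours, Epha3, Epha4 and Epha5 left of 0 in both, and Robo3 has the largest green change (2.72) with an orange change of 0.05.

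Side by side, 31 of the 69 tested genes were called in both comparisons, while 25.8% of all tested genes were. That is 73.8% of the 42 called in EED-cKO and 67.4% of the 46 called in spinal cord, against 54.9% and 56.4% of the calls over all genes. The 2 comparisons share no library, but they share 1 estimate of each gene's spread, so their calls are not independent. The direction was the same for 21, or 30.4% of the tested genes, against 20.2% of all tested genes. The 13 that were higher in both (11.2% of all tested genes were) were the 3 Slit genes, Ntn1, Ntn5, Nrp2, Epha10, Ephb3, Sema3b, Sema3d, Sema3g, Sema4a and Sema6d. Ntn5, here and among the 27 that rose, passed the filter only because of its EED-cKO values, so its rise adds nothing to these counts. The 8 that were lower in both (8.99% of all tested genes were) were Epha3, Epha4, Epha5, Efna2, Efna4, Efnb1, Efnb2 and Ntng2. Another 10 went opposite ways (14.5%, against 5.62% of all). Sema3c, Sema6b, Sema6c and Sema7a were lower in EED-cKO and higher in spinal cord, and Efnb3, Ephb2, Ephb4, Plxnb2, Sema5a and Unc5b the reverse. Among these 10, Efnb3, Ephb2, Plxnb2, Sema5a, Sema6b and Sema6c lost 1 or both calls when single libraries were left out. So did Ephb3, Nrp2, Sema3g, Sema6d and Slit3 among the 13, and Efna2 and Epha5 among the 8. The shares given here are those with all 8 libraries. The 12 called in neither (33.1% of all tested genes were in neither) were Dcc, Epha6, Epha7, Ntng1, Plxnb1, Plxnd1, Sema3a, Sema3e, Sema4b, Sema4d, Unc5a and Unc5d. Across the 69 genes the 2 sets of changes correlated with r = 0.412 (Spearman's coefficient 0.279), close to r = 0.382 (Spearman's coefficient 0.365) across all tested genes, which are not independent replicates. A limma contrast of the difference between the 2 changes, added after the data were seen, called 39 of the 69 genes (56.5%, against 36.1% of all tested genes). The median size of the change, whatever its direction, was 0.43 for EED-cKO and 0.55 for spinal cord.

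**Figure D4:**
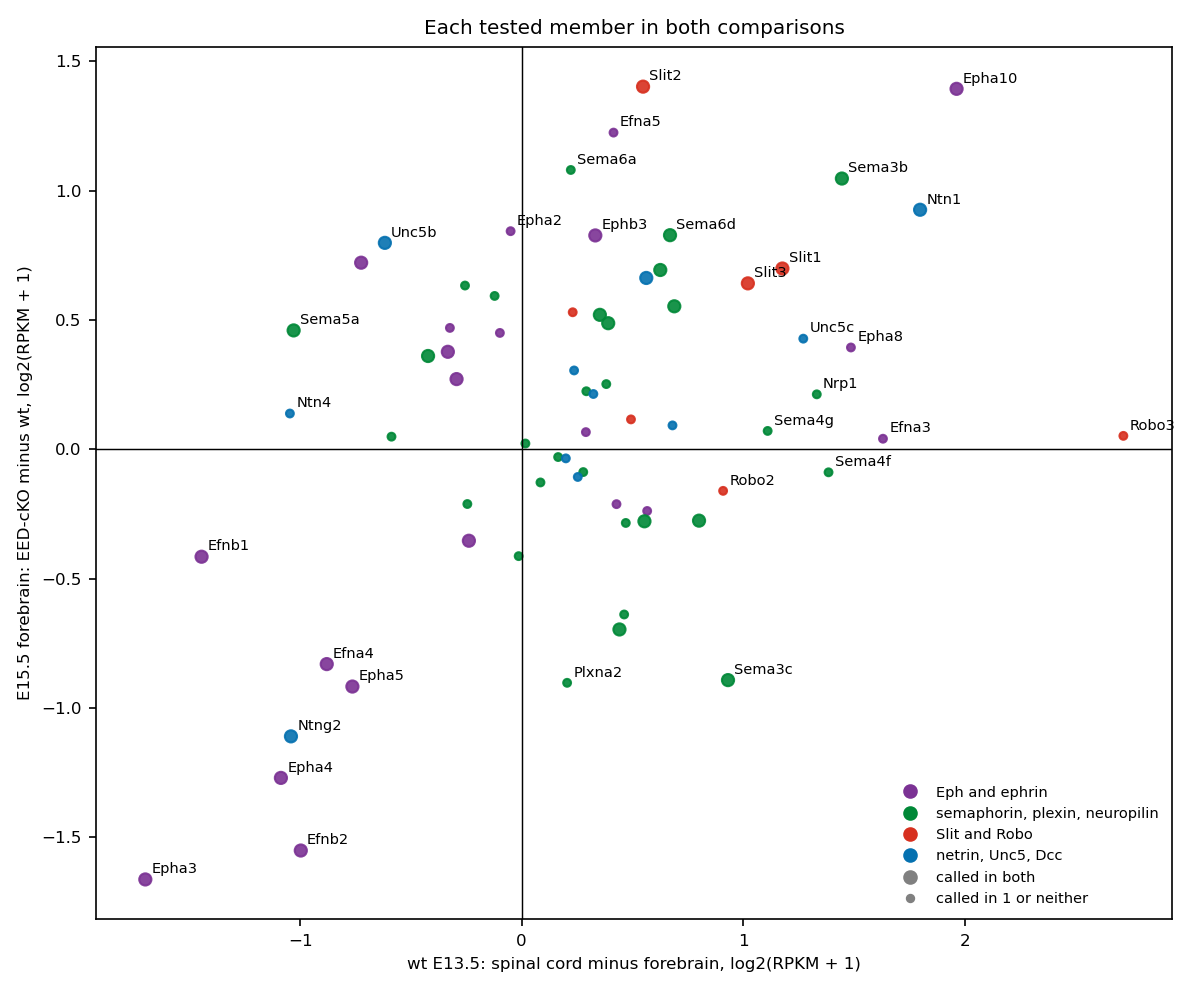
Change of each of the 69 tested genes between spinal cord and forebrain at E13.5 (horizontal) against its change between EED-cKO and wt E15.5 forebrain (vertical), both in log2(RPKM + 1), coloured by signalling system; large points were called in both. Epha3, Epha4 and Efnb2 lie at the lower left, Epha10, Ntn1 and Sema3b at the upper right, and Robo3 and Efna3 on the horizontal axis (vertical values 0.05 and 0.04).

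Genes that act beside or downstream of these receptors were tested as a list of other cues and receptors and a list of cytoplasmic effectors. Of 32 other cues and receptors, 10 rose and 5 fell in EED-cKO, near the 30.2% and 16.7% of all tested genes, and 16 were higher and 5 lower in spinal cord, against 21.8% and 23.9%. The EED-cKO balance turned with the scaling, to 7 higher and 8 lower after quantile normalization and 8 and 9 after median-ratio scaling. Cntn2, an adhesion molecule of commissural and corticofugal axons, fell in EED-cKO (log2 −1.93 ± 0.16) and was higher in spinal cord (1.36 ± 0.16). Omg, a myelin-associated glycoprotein, rose in EED-cKO (1.2 ± 0.083), as did Dscam, an adhesion molecule of the immunoglobulin family (1.01 ± 0.16). In spinal cord Cntn4 was higher (2.02 ± 0.22) and Cdon, a co-receptor of Hedgehog proteins, lower (−1.99 ± 0.15). Of 52 effectors, which include kinases, regulators of small GTPases and the collapsin response mediators, 13 rose and 13 fell in EED-cKO, with a median change of 0.02. After quantile normalization 7 were higher and 10 lower, and after median-ratio scaling 8 and 18. In spinal cord 15 were higher and 7 lower, led by Dpysl4 of the collapsin response mediator family (log2 1.5 ± 0.070). The largest changes among effectors in EED-cKO were in Rhod (1.05 ± 0.086), Pak3 (0.75 ± 0.19) and Chn2 (−0.67 ± 0.072).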

How the data were processed

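Total RNA was made into unstranded NEBNext Ultra libraries and sequenced as single reads on a HiSeq2500, per the labels' protocols, so a gene and an overlapping antisense partner cannot be told apart. The authors deposited RPKM per gene symbol in 1 table. The submitters' processing notes name the builds GRCm38 and mm9 without saying which applies, and the aligner and counter are not given in the sources used here. The table has 36333 rows. Of 16 symbols with a repeated row the row with the higher mean was kept. The gene names fit the E15.5 columns only once sorted alphabetically, ignoring case and hyphens: wt forebrain at the 2 ages then correlated with r = 0.948, against 0.76 as deposited. This reading is inferred from the values.

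Genes at 1 RPKM or more in at least 2 libraries were tested on log2(RPKM + 1) with limma 3.58.1 (R 4.3.3), with 4 group means, a trend on the mean, 4 residual degrees of freedom, 2-sided tests and Benjamini-Hochberg adjustment over all 17022 genes. On data simulated from these genes, the test called 90 of 100 genes given a log2 change of 1 in the EED-cKO comparison. In the spinal cord comparison it called 86 of 100. Both counts describe the simulated data and are not a rate for the guidance genes. Of the genes left unchanged, 7 and 10 were called. The simulation gave each gene the same spread in all 4 groups and changed only genes above 2 on the log2(RPKM + 1) scale. Changes smaller than 1 were not simulated. In wt E15.5 forebrain, guidance genes had a median standard deviation between replicates of 0.182 on the log2 scale. Over all tested genes that value was 0.117. Up to 3 called genes per family and direction with the largest change were named, and the other members more briefly. The members and lists were chosen with earlier results of these data known. Alternatives were another pseudocount, no filter, quantile and median-ratio scaling, fewer libraries, the row order, and a replicate block. Promoters came from RefSeq (GRCm38.p6) and gene positions from GENCODE (GRCm38), matched by symbol.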

Additional observations from a re-analysis of the deposited data

How the results depend on the processing

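In EED-cKO forebrain, 20 of the 42 called guidance genes kept their call under every alternative that tested them, and 26 if the deposited row order is set aside; in spinal cord 34 of 46 did. The fit limited to genes whose row did not depend on the order tested 32 of the called genes in each comparison. Of all genes, 7987 were called in EED-cKO, 4777 with the 4 E15.5 libraries fitted alone, which left 16 guidance genes higher, and 4929 when the test was limited to genes whose row did not depend on the order. That restriction gave 4792 of 7784 genes in spinal cord, with 10 guidance genes lower, since fewer genes were tested. Leaving out 1 library gave 4922 to 9606 genes in EED-cKO (4922 without EED-cKO replicate 2), with 17 to 32 guidance genes higher and 12 to 17 lower. In spinal cord it gave 5205 to 9320 genes, with 23 to 37 guidance genes higher and 12 to 18 lower, and the difference between the comparisons was called for 27 to 45 guidance genes. Scaling moved the split over all genes in EED-cKO from 5149 higher and 2838 lower to 3540 and 4314 (quantile) or 4043 and 4240 (median ratio). Where not stated, the cause was not tested.

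In the deposited row order the EED-cKO change was reversed for Epha3 (0.84), Nrp2 (−1.16) and Unc5b (−0.0521), since another row then stands under the name.

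The replicate numbers are not stated to mark shared embryos or batches. Same-numbered deviations correlated at 0.211 between the E13.5 tissues, −0.124 between the E15.5 groups and −0.006 to 0.048 between groups of different age. The values do not settle whether same-numbered E13.5 tissues came from shared embryos, and the tests above did not pair samples. With a replicate block, 7608 genes were called in EED-cKO, with 26 guidance genes higher and 16 lower, and 7466 in spinal cord, with 30 and 16. Sema5a lost its EED-cKO call and Sema6d its spinal cord call. With the EED-cKO numbers crossed, chosen after seeing the data, 8013 genes were called in EED-cKO, with 27 and 16 guidance genes.

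With 2 libraries per group, rounding to 0.1 and unknown depth, changes of genes near 1 RPKM are the least certain.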
